A study of Mus musculus with 5 samples.

Results

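This account concerns 121 genes that were counted in both wild type libraries and were at or near 0 in all 3 Suz12 cKO libraries, out of 27179 genes in the count table. Genes were chosen by their raw counts: a gene entered if it had at least 10 raw counts in each wild type library and at most 3 raw counts summed over the cKO libraries. Of 133 rows that met these limits, 7 genes on chromosomes X and Y, 4 genes left out by name and 1 row without a symbol were set aside. They are the same counts that the genotype comparison rests on, so the difference between genotypes in these genes is a description and was not tested.

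The RNA was polyadenylated RNA of purified Langerhans cells, dendritic cells of the epidermis related to macrophages, from skin of C57BL/6 mice at the age of 1 week. Each library was made from 5000 cells by a SMART-Seq protocol for low input. Wild type mice gave 2 biological replicates, and mice with the genotype Suz12 cKO, a conditional knockout, gave 3. Neither the driver of the recombinase nor the sex of the animals is stated in the sources used here. The libraries held 12090062 to 25725900 counts assigned to genes, and cKO replicate 2 was the deepest.

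The Suz12 protein belongs to the core of Polycomb repressive complex 2 (PRC2), which methylates lysine 27 of histone H3 and is known for keeping developmental genes silent, often at promoters rich in CpG dinucleotides. Langerhans cells take up antigen in the skin and carry it to lymph nodes.

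Suz12, the targeted gene, lies on chromosome 11 (79993106 to 80034123, mm10). It had 88 counts in wild type replicate 1 and 39 in replicate 2, and 0, 0 and 7 counts in cKO replicates 1 to 3. Every cKO library was thus lower than either wild type library, the direction the labels give. With 7 counts in cKO, Suz12 itself fell outside the limits and is not one of the 121 genes. Cd207, which encodes langerin, lay between 6639 and 14596 CPM over all 5 libraries, and Epcam between 1042 and 1634 CPM. CPM here is the count per 1000000 counts of the TMM-scaled library size. The source label names alveolar macrophages, while the other labels name Langerhans cells of skin. Of 4 alveolar macrophage markers, the genes Siglecf, Car4 and Chil3 were at 0 in all 5 libraries. Marco lay at 45.7 CPM in wild type replicate 1 and at or under 0.118 CPM elsewhere.

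Ranked by the lower of the wild type levels, the first gene was Sertad3, which encodes a transcriptional coregulator of the SERTA domain family. In wild type, 612 and 761 counts of Sertad3 were seen (gene 170742, chromosome 7, 27473840 to 27477364, mm10), and none in any cKO library. Its level in wild type was 38.6 ± 8.82 CPM (SD, n = 2). Against a floor of 3 counts over the cKO group, which is 0.0537 CPM, it was at least 713-fold lower in cKO. This bound and the later ones cover counting error only, and not the differences between libraries of one genotype. Ffar4 (gene 107221, chromosome 19, 38097079 to 38114263), a receptor for long-chain fatty acids, had 365 and 423 counts in wild type, 22.1 ± 3.97 CPM (SD, n = 2), and none in cKO. Both wild type libraries were far above every cKO library for these genes. Their promoters are shown as examples from these genes, both with a ratio of observed to expected CpG above 0.6, as in most of the 121. They are the 250 bases before the gene start in RefSeq on GRCm38.p6, 5′ to 3′, both on the plus strand, with CpG dinucleotides in capitals, 16 in Sertad3 and 11 in Ffar4.
Sertad3, chr7:27473590-27473839: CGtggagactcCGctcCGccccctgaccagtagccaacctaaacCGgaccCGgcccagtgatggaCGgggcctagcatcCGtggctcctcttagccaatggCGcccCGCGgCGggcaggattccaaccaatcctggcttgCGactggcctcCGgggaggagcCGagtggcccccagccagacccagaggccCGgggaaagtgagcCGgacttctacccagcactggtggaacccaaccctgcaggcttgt
Ffar4, chr19:38096829-38097078: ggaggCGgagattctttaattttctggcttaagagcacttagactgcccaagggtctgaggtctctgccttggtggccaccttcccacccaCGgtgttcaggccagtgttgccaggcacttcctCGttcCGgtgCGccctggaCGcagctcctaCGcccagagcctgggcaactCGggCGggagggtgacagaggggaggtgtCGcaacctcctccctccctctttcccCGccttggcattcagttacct

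The definition gave 87 genes with no count in any cKO library, 18 with 1 count, 9 with 2 and 7 with 3. A count was seen in cKO replicate 1 for 8 of the 121 genes, in cKO replicate 2 for 16 and in cKO replicate 3 for 10. The lower wild type count was 100 or more for 59 genes, 20 to 99 for 45 and 10 to 19 for 17. The wild type mean ranged from 1.19 to 42.8 CPM, with a median of 9.35 CPM. All genes with at least 10 counts in both wild type libraries, 6672 after the same exclusions, had a median of 32.2 CPM and reached 38568 CPM. The 121 genes are 1.81% of those 6672. By their median they were thus weakly expressed beside those 6672. Cibar1, Sertad3 and 5730455P16Rik, with means of 42.8, 38.6 and 36.2 CPM, lay above the median of the 6672. None of the 121 lay above 100 CPM in a wild type library.

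**Figure D1:**
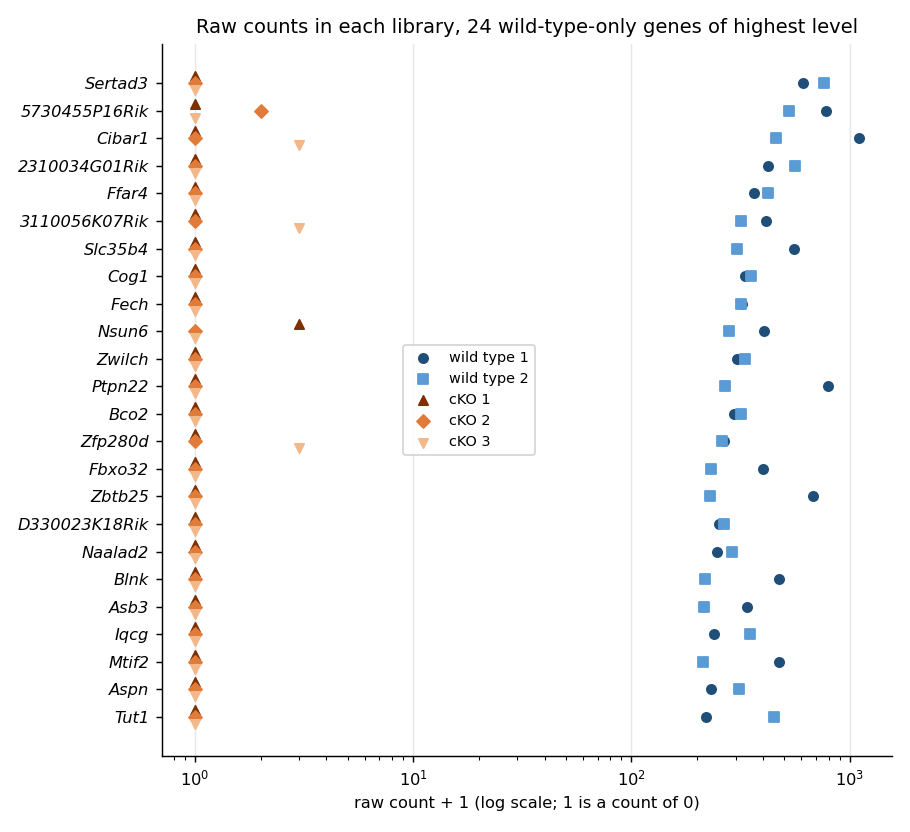
Raw counts plus 1 (log axis) in each of the 5 libraries for the 24 wild-type-only genes with the highest lower value of the 2 wild type CPM values; circles and squares are wild type replicates, triangles and diamonds cKO replicates, set slightly apart vertically. Both wild type libraries sit above 200 counts for every gene, and the cKO libraries sit at 0 to 2 counts.

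Genes at the edge of the limits show how the group was bounded. Just inside, 7 genes had 3 counts over cKO, all in a single cKO library: Kif3c, Btbd3, Alkbh1 and Akr1b8 in cKO replicate 2, Trib2 and Trim29 in cKO replicate 1, and Ttc39a in cKO replicate 3. The smallest wild type count was that of Wfdc18, with 11 counts in replicate 1 and 366 in replicate 2. Just outside, 2 genes had 4 counts over cKO. Setd2, a histone H3 methyltransferase of lysine 36, had 181 and 178 counts in wild type and 4, 0 and 0 in cKO, and Camta2 had 104 and 60 counts against 0, 4 and 0. A further 2 genes missed the limit with 9 counts in the lower wild type library: Tpmt with 351 and 9 counts and Sfswap with 156 and 9.

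The same limits were applied to each of the other 9 ways of setting 2 libraries against the remaining 3, as the definition asks. These gave 63 to 195 genes, with a median of 98. For the wild type pair the number was 121, which 3 of the other 9 pairs exceeded and 6 did not reach. The highest number, 195, came from wild type replicate 2 with cKO replicate 2, and the lowest, 63, from wild type replicate 1 with cKO replicate 1. The 4 other pairs that held cKO replicate 2, the deepest library, gave 120 to 195 genes, and the 5 pairs without it gave 63 to 98. As a share of the genes with 10 counts in both libraries of the pair, the other pairs gave 1.01% to 2.79%, around the 1.81% of the wild type pair. The number of genes confined to the wild type pair therefore lay inside the range of pairs that mix genotypes or come from cKO alone. It lay above the 63 to 98 of the 5 pairs that, like the wild type pair, do not hold cKO replicate 2. That difference was not tested, and setting these pairs apart was not part of the definition. After counts were scaled to the shallowest library, the wild type pair gave 112 genes and the other 9 pairs 62 to 169. Of those 9 pairs, 4 gave more than the wild type pair. With the limits mirrored, 83 genes had at least 10 counts in each of the 3 cKO libraries and at most 3 over both wild type libraries. That condition is stricter on the detected side, with 3 libraries, and looser on the absent side, with 2. The numbers 83 and 121 are therefore not directly comparable.

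**Figure D2:**
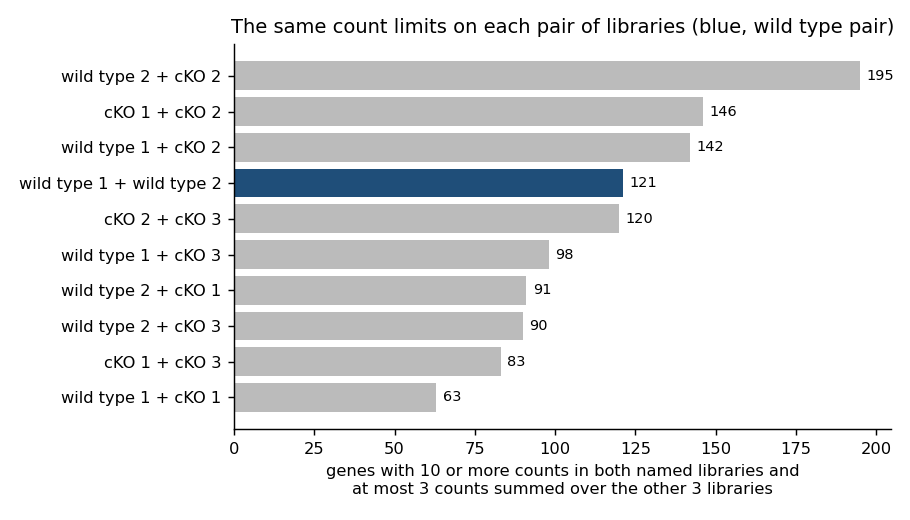
Number of genes outside chromosomes X and Y with at least 10 counts in both named libraries and at most 3 counts summed over the other 3, for each of the 10 pairs of libraries. The wild type pair (blue) has 121 genes, and 3 pairs have more.

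Absence from cKO depended on the wild type level. Among the 261 genes whose lower wild type level was under 1 CPM, 6.13% were in the group, against 3.80% of 1290 genes at 3 to 10 CPM and 1.56% of 1735 genes at 10 to 30 CPM. At 30 to 100 CPM, 2 of 1539 genes were in it, Sertad3 and 5730455P16Rik. None of 1256 genes at 100 CPM or more was, and none of those lacked a count in any cKO library. Over all 6672 genes, 8.66% had no count in cKO replicate 1, 5.88% none in cKO replicate 2 and 11.2% none in cKO replicate 3, the shallowest library, and 18.5% lacked a count in at least 1 of them. Genes were also missing between libraries of one genotype. Of genes at 10 CPM or more in one library, 7.20% to 13.6% had no count in another library of the same genotype (8 ordered pairs, median 9.09%), and 6.37% to 11.7% had none in a library of the other genotype (12 ordered pairs, median 9.65%).

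**Figure D3:**
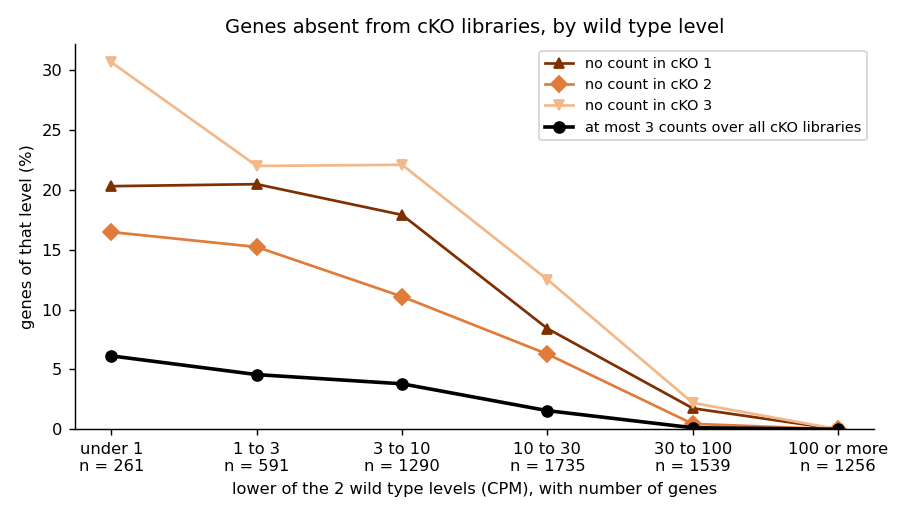
Percent of genes with no count in each cKO library (coloured lines), and percent with at most 3 counts over all 3 (black), by the lower of the 2 wild type CPM values; genes have at least 10 counts in both wild type libraries. All 4 lines are lower at 10 CPM or more than under 3 CPM and reach 0 at 100 CPM or more.

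In the fit over all genes edgeR called 0 of 9988 genes at an adjusted p of 0.05, a background of 0.0%, and none of the 121 genes, all of which were tested. At an unadjusted p of 0.05 edgeR had 415 genes, and 115 of the 121 were among them. DESeq2 called 191 of 9019 genes with an adjusted p, or 2.12%, and 54 lower in cKO, or 0.599%. Of the 121 genes DESeq2 gave 94 an adjusted p and called 41. The limits had already separated the groups for all 121, where over the 9988 tested genes 1015, or 10.2%, had no overlap and a lower cKO group. These values repeat the choice of the genes and carry no further evidence about them.

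The wild type libraries often differed from each other in these genes. The larger wild type CPM was a median of 2.01 times the smaller, against 1.65 times over the 6672 genes. These sets were not matched for level: the lower wild type CPM had a median of 5.50 in the 121 and 21.0 in the 6672. Within a factor of 2 lay 59 genes (48.8%, against 62.0% of the 6672), and 24 differed by a factor of 5 or more (19.8%, against 10.7%). Replicate 1 was the higher library for 54 of the 121. The widest gap was that of Wfdc18, at 0.582 and 21.6 CPM, followed by Ddx27, an RNA helicase of ribosome assembly, at 0.688 and 19.5 CPM. In the opposite direction Ints3, a subunit of the Integrator complex, lay at 17.8 and 0.766 CPM, and the deubiquitinase gene Usp48 at 54.8 and 5.66 CPM. Fech, which encodes the last enzyme of heme synthesis, was even between replicates, at 16.9 and 18.6 CPM.

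**Figure D4:**
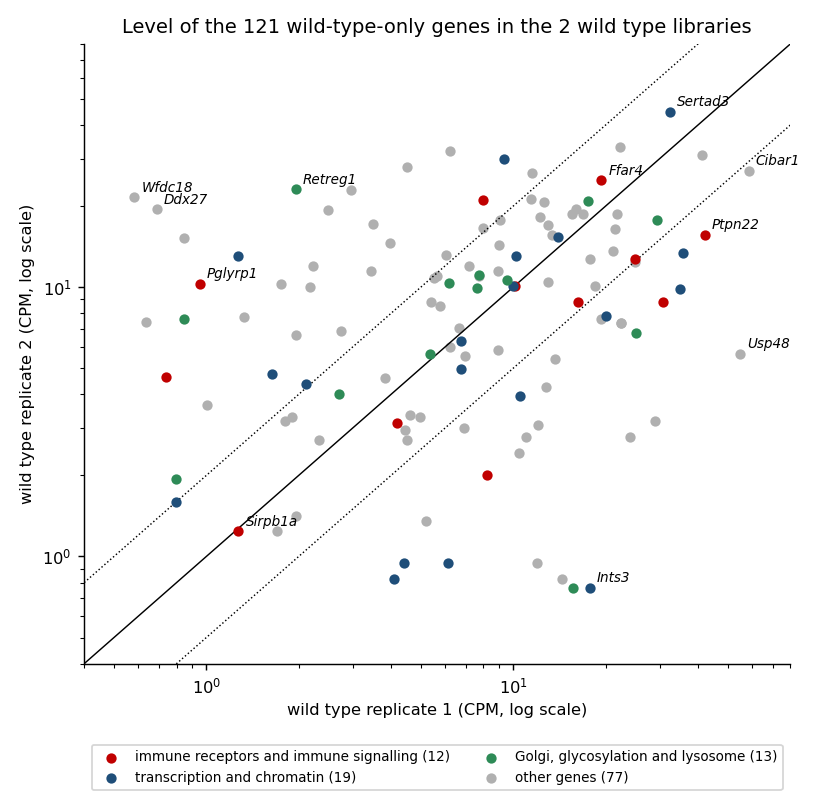
Level in wild type replicate 1 (x axis) and replicate 2 (y axis), both CPM on log axes, for the 121 wild-type-only genes; the solid line marks equal levels and dotted lines a factor of 2. 59 genes lie between the dotted lines, and 24 lie at a factor of 5 or more.

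Genes of immune receptors and immune signalling made up 12 of the 121, and 9 of them had no count in cKO. Besides Ffar4, the highest was Ptpn22, a phosphatase that dampens antigen receptor signalling, with 796 and 266 counts in wild type, 28.9 ± 18.7 CPM (SD, n = 2), and at least 552-fold lower in cKO. Without wild type replicate 1, the higher library, the bound was 292-fold, a comparison added after the values were seen. Tarm1, an activating receptor of myeloid cells, had 583 and 149 counts and Blnk, an adaptor of antigen receptor signalling, 473 and 216, with none in cKO for either gene. The sphingosine 1-phosphate receptor gene S1pr2 had 151 and 358 counts and none in cKO. Nlrx1, a mitochondrial member of the NOD-like receptor family, had 191 and 171 counts in wild type and 1 in cKO replicate 2. Tlr9, the endosomal receptor for unmethylated CpG DNA, was near the limit, with 14 and 79 counts in wild type and 1 in cKO replicate 2. The complement gene C2 had 155 and 34 counts and Pglyrp1, which binds bacterial peptidoglycan, 18 and 175, with none in cKO. Levels of other cells' markers differed between the libraries too: 5 macrophage markers (C1qa, C1qb, C1qc, Mrc1, Cd163) had a wild type sum of 766 and 532 CPM, with 159, 571 and 373 CPM in cKO. For 6 T cell markers the sums were 588 and 463 CPM against 667, 207 and 182 CPM. None of these 11 markers was at 0 in all libraries, but Mrc1 was at 0 in cKO replicate 2, and Trbc1 and Trbc2 at 0 in cKO replicate 3. Sums of 5 melanocyte markers (Dct, Tyr, Tyrp1, Mlana, Pmel) were 39.6 and 429 CPM in wild type against 49.7, 32.7 and 143 CPM in cKO. The part of all these markers in the result was not tested. In bulk RNA, fewer cells of a type and less RNA per cell cannot be told apart.

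The immune genes included 3 Sirpb1 genes of chromosome 3, which encode signal-regulatory proteins that pair with activating adaptors on myeloid cells. Sirpb1a (15371661 to 15426522) had 24 and 21 counts in wild type, Sirpb1b (15495754 to 15575067) had 79 and 53, and Sirpb1c (15795147 to 15848530) had 307 and 150. The cKO libraries held none of Sirpb1a and Sirpb1b and 1 count of Sirpb1c, in cKO replicate 2. For Sirpb1c the ratio of wild type to cKO was 712, with a 95% counting interval from 127 to 28188. The 3 genes are near copies, so they do not stand for 3 separate observations. Of the 75-base windows of Sirpb1b transcripts, a window being 1 read length, 53.1% also occurred in Sirpb1c and 22.7% in Sirpb1a, and 27.5% of those of Sirpb1a occurred in Sirpb1c. Their promoters show the same likeness and are CpG-poor, with 1 to 2 CpG in 300 bases. The bases before each gene are given 5′ to 3′ from RefSeq on GRCm38.p6, minus strand, with the longest run shared by all 3, of 26 bases, in capitals. Over the aligned stretch they were 95.5% (Sirpb1a and Sirpb1b), 94.8% (Sirpb1a and Sirpb1c) and 97.6% (Sirpb1b and Sirpb1c) identical.
Sirpb1a, chr3:15426523-15426677: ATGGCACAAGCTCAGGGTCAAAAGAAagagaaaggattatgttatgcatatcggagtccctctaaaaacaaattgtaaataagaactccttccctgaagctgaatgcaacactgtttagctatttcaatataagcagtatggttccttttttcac
Sirpb1b, chr3:15575068-15575315: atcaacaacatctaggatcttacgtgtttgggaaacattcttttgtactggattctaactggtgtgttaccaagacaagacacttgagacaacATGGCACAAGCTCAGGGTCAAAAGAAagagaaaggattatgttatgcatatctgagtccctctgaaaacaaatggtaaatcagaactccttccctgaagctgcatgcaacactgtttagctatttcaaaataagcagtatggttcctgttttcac
Sirpb1c, chr3:15848531-15848737: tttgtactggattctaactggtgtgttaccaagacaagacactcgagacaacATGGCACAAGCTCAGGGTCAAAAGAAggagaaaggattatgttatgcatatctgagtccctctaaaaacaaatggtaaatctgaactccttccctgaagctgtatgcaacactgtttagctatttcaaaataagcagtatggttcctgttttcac

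Regulators of transcription and chromatin were the largest set, with 19 of the 121, and 17 of them had no count in cKO. After Sertad3 the next by the lower wild type CPM were Zbtb25 and Zfp280d, both zinc finger proteins. Zbtb25 had 675 and 227 counts in wild type and none in cKO, and Zfp280d had 264 and 260 counts and 2 in cKO replicate 3. Grhl1, a transcription factor of the epidermis, had 660 and 167 counts and none in cKO, while 7 keratinocyte markers, none at 0 in all libraries, had a sum of 250 and 484 CPM in the wild type libraries against 491, 715 and 771 CPM in cKO, and their part in the result was not tested. Nelfa, a subunit of the complex that holds RNA polymerase II paused, had 176 and 509 counts and none in cKO. Smad5, which carries BMP signals to the nucleus, had 380 and 133 counts, and the BMP ligand gene Bmp7, counted with the signalling genes, had 25 and 131, with none in cKO for either gene. Ep400, a chromatin remodeller, had 40 and 74 counts and the deacetylase gene Sirt6 116 and 16, again with none in cKO. Genes named for zinc finger families numbered 7 of the 121, or 8.05% of the 87 such genes with 10 counts in both wild type libraries, beside 1.81% of all genes. The latter share covers all levels and ran from 6.13% under 1 CPM to 0.130% at 30 to 100 CPM. No share matched for level was computed. Zfp61 had 128 and 84 counts in wild type, and Zfp653 had 31 and 81. Zfp326 had 83 and 16, Zfp976 had 77 and 14 and Zfp580 had 15 and 27, with none in cKO for these 5 genes.

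Genes of the Golgi, glycosylation and the lysosome numbered 13, of which 11 had no count in cKO. Slc35b4, a nucleotide sugar transporter of the secretory pathway, had 554 and 302 counts in wild type, and Cog1, a subunit of the conserved oligomeric Golgi complex, had 331 and 353. They were at least 445-fold and 355-fold lower in cKO, where neither had a count. Mfng and Pofut1, both of which modify Notch receptors with sugars, had 146 and 189 counts and 51 and 68 counts in wild type. In cKO Mfng had none and Pofut1 had 2, in replicate 3. Sgsh, a lysosomal sulfatase of heparan sulfate breakdown, had 476 and 115 counts and none in cKO.

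DNA repair and cell division contributed 12 genes. Zwilch, a kinetochore protein, had 303 and 332 counts in wild type, and Tubgcp3, a subunit of the gamma-tubulin complex, had 348 and 172, with none in cKO for either gene. Ddb2, which recognises ultraviolet damage, had 72 and 78 counts and the base excision glycosylase gene Neil1 168 and 99, with none in cKO. The group also held Dlgap5, a spindle protein, with 109 and 144 counts in wild type against 2 in cKO replicate 2. Troap, a gene of the mitotic spindle, was there too, with 85 and 476 counts and none in cKO. Neither is on the list for the S, G2 and M phases. Of that list, 20 genes had 10 counts in both wild type libraries and none was in the group. At the share of 1.81% over all genes, a list of 20 would hold few or no genes of the group. Their absence therefore says little about genes of these phases.

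Mitochondrial and metabolic genes numbered 11 and genes of RNA modification, ribosome assembly and translation 9. Bco2, a mitochondrial enzyme that cleaves carotenoids, had 293 and 316 counts in wild type and none in cKO, and Fech had 319 and 316 and none. Naalad2, a peptidase gene, had 245 and 289 counts and none in cKO. Nsun6, a methyltransferase of transfer RNA, had 405 and 279 counts in wild type and 2 in cKO replicate 1. Mtif2, a mitochondrial translation initiation factor, had 473 and 211 counts and Tut1, which adds uridines to U6 RNA, 218 and 450, with none in cKO. None of 67 mitochondrial ribosomal protein genes with 10 counts in both wild type libraries was in the group. At the share of 1.81% over all genes, a list of 67 would hold few or no genes of the group. Their absence therefore says little about mitochondrial ribosomal protein genes.

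Genes of the cilium numbered 5. Cibar1, a protein of the ciliary base, had the highest mean of the 121, with 1105 and 459 counts in wild type, 42.8 ± 22.2 CPM (SD, n = 2). It had 2 counts in cKO replicate 3, a ratio of 1219 with a counting interval from 337 to 10071. Without wild type replicate 1 the ratio was 756. Iqcg had 238 and 350 counts, Lca5 had 549 and 54, Tbc1d32 had 42 and 203 and Dnaaf2 had 273 and 14, with none in cKO for these 4 genes. The ubiquitin system held 7 genes, among them Fbxo32, which encodes atrogin-1, with 400 and 231 counts, Asb3 with 337 and 215, and Fbxo21 with 84 and 50, none of them counted in cKO.

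The remaining sets were small or mixed. Transporters numbered 3. Slc39a2, a zinc transporter and the only one of 12 macrophage and monocyte list genes with 10 counts in both wild type libraries that entered the group, had 114 and 224 counts in wild type and none in cKO. Slc46a1, a folate transporter, had 170 and 243 counts and 1 in cKO replicate 3, and Abcb1b, a drug efflux pump, 65 and 194 counts and 2 in cKO replicate 2. Cytoskeletal, membrane and signalling genes numbered 12. Among them Aspn, a proteoglycan of connective tissue, had 231 and 310 counts in wild type and none in cKO. The calponin gene Cnn3 had 245 and 178 counts and none in cKO. The sum of 5 fibroblast and endothelium markers was 19.3 and 76.4 CPM in the wild type libraries against 3.69, 27.6 and 194 CPM in cKO, with Cdh5 at 0 in all libraries, and their part in the result for Aspn was not tested.

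No gene of the lists for PRC2, for PRC1 and its counterpart PR-DUB, for Langerhans cell identity, or for keratinocytes, melanocytes, lymphoid cells, mast cells and neutrophils, or fibroblasts and endothelium was in the group. Of the Langerhans cell identity list, 26 of 28 genes had 10 counts in both wild type libraries. For PRC2 this held for 7 of 12 genes, and for PRC1 and PR-DUB for 9 of 21. It held for 11 keratinocyte, 3 melanocyte, 8 lymphoid, 1 mast cell and neutrophil and 3 fibroblast and endothelium genes. At 1.81% over all genes, lists this short would hold few or no genes of the group, so a count of 0 says little about them.

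The group held 8 noncoding RNA genes, 6.61% of the 121 against 1.18% of the 6672 for the same gene types, without matching for level. By the lower wild type CPM the first was 2310034G01Rik, with 421 and 562 counts in wild type and none in cKO, followed by 3110056K07Rik, with 412 and 317 counts and 2 in cKO replicate 3, and D330023K18Rik, with 252 and 265 and none. Per kb of gene length the wild type mean of 2310034G01Rik was the highest of the 121, at 35.2 CPM per kb, ahead of Cibar1 at 32.3, Sertad3 at 30.7 and D330023K18Rik at 28.3. Coding genes without an assigned role numbered 10, the highest being 5730455P16Rik, with 781 and 527 counts in wild type and 1 in cKO replicate 2.

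Several genes shared sequence or overlapped others, which bears on how far their counts can be told apart. Of the 121 genes, 70 had no 75-base window in common with transcripts of another gene on either strand, 24 shared over 10% of their windows and 5 over 50%. Gm3317, with 37 and 24 counts in wild type and none in cKO, shared all of its windows with other predicted genes. Gm1818, with 216 and 360 counts in wild type and 1 in cKO replicate 2, shared 81.2% of its windows with Tfb2m, a mitochondrial transcription factor gene that was itself in the group with 47 and 328 counts and none in cKO. These 2 genes may therefore hold the same reads. Sdhaf1 shared 68.7% and Dnaaf2 66.3%. In the annotation 36 of the 121 overlapped the span of another counted gene, 29.8% against 25.5% of the 6672.

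The 121 genes lay on all 19 autosomes, with 17 on chromosome 2, 14 on chromosome 9 and 12 on chromosome 11. As a share of the genes with 10 counts in both wild type libraries, the range was 0.522% on chromosome 1 to 3.92% on chromosome 9. Only 4 adjacent pairs lay within 200 kb of each other: Tle6 and Sirt6, Ddb2 and Pacsin3, Sirpb1a and Sirpb1b, and Slc35b4 and Akr1b8. In the first 3 pairs no other gene with 10 counts in both wild type libraries lay between. Tle6 had 193 and 222 counts in wild type and none in cKO. Pacsin3 had 132 and 94 counts and 1 in cKO replicate 3, and Akr1b8 had 16 and 259. The medians of gene length and span were 2690 and 23123 bases, against 2344 and 17936.5 bases for the 6672.

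Neighbours of Suz12 were looked at after their values were seen. Within 1 Mb of it on chromosome 11, 11 genes, Suz12 included, had 10 counts in both wild type libraries, and 2 of them were in the group. Atad5, which unloads the replication clamp and lies 99.0 kb away by midpoint, had 241 and 72 counts in wild type and none in cKO, and 5730455P16Rik lies 356 kb away. Crlf3, at 50.2 kb, had 577 to 3757 counts over the 5 libraries, Rhot1 had 171 to 1675, and Zfp207 had 853 to 3918. Utp6 had 407 to 1002 counts in 4 libraries and none in cKO replicate 3. Rnf135, between Atad5 and 5730455P16Rik, had 189 counts in wild type replicate 2 and none in the other 4 libraries, so it did not meet the limits. Within 5 Mb of Suz12 the group held 5 of 69 such genes, 7.25%, against 2.02% over chromosome 11. The others were Slc46a1, Nle1 and Wfdc18. With so few genes these shares carry no test.

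**Figure D5:**
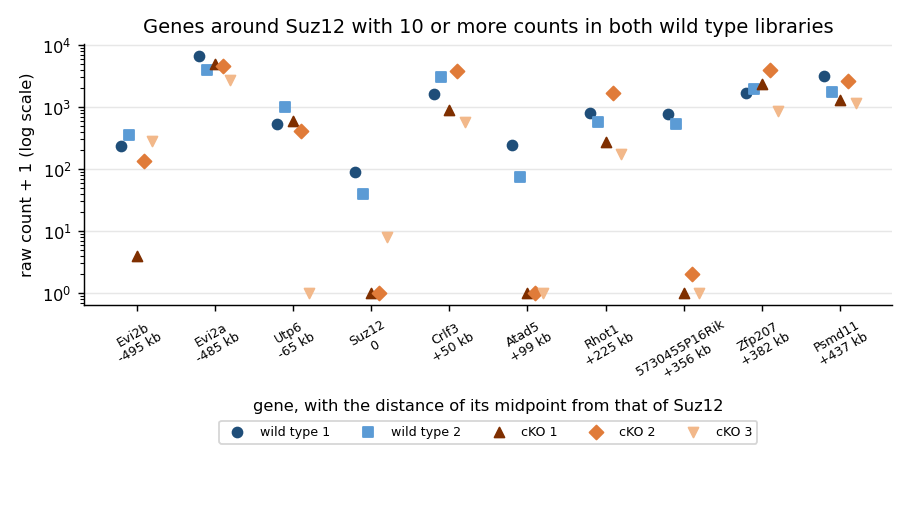
Raw counts plus 1 (log axis) in the 5 libraries for Suz12 and the genes within 600 kb of it that had at least 10 counts in both wild type libraries, ordered by the distance of their midpoints. Atad5 and 5730455P16Rik are at 0 or 1 count in all 3 cKO libraries, while Crlf3 and Rhot1 between Suz12 and 5730455P16Rik have 171 counts or more in every library.

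Promoter sequence, which the choice of genes did not use, was close in median CpG content to that of other genes these cells express. The share of CpG-poor promoters and of some motifs differed more. A RefSeq promoter of 300 bases, from 250 before to 50 after the most upstream start, was found for 101 of the 121 genes. These held a median of 19 CpG, against 21 for 5165 promoters of the 6672 genes and 7 for all 27025 promoters in the table. The ratio of observed to expected CpG was 0.6 or more in 74 of the 101 (73.3%), against 76.4% and 36.5%. CpG-poor promoters, with 3 or fewer CpG, numbered 12 (11.9%, against 5.91% of the 5165). By role the immune genes stood at a median of 5 CpG, with 2 of 11 at a ratio of 0.6 or more, and the transcription and chromatin genes at 23 CpG, with 17 of 19. The 11 immune promoters include those of the near copies Sirpb1a, Sirpb1b and Sirpb1c, at 1, 1 and 2 CpG. These are also among the 12 CpG-poor promoters. No value was computed for immune genes outside the group. On either strand, GGGCGG occurred in 53.5% of the promoters of the group, 65.7% of the 5165 and 35.9% of all. CCAAT was in 37.6%, 40.2% and 38.0%, CACGTG in 10.9%, 11.2% and 7.24%, TATAAA in 7.92%, 7.76% and 14.2%, and TGACTCA in 0.990%, 3.68% and 5.17%. GGGCGG and CACGTG themselves hold a CpG, and a match is not evidence of binding.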

How the data were processed

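Raw gene counts were deposited by the authors both for all libraries together and for each sample, with identical values in all 27179 rows. Per the submitters' processing notes, featureCounts and mm10 were used. The sources used here do not give the aligner, the strand setting or what was done with reads matching more than one gene. Symbols came from RefSeq on GRCm38.p6 (18 from GENCODE vM21); 1886 rows had none and held 1.46% to 2.30% of the counts per library. They stayed in the fit and out of the group.

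The 121 genes and the lists were chosen with earlier results of these data known, and the roles were assigned once the genes were known. Libraries were grouped by title as wild type (2) or Suz12 cKO (3). The fit used filterByExpr (minimum count 10) and TMM in edgeR 4.0.16 under R 4.3.3, then the robust quasi-likelihood F test with Benjamini-Hochberg adjustment at 0.05, tested on simulated data. By counting error alone, a gene without a count lies at up to 0.106 to 0.258 CPM, the value of 3 counts in a library. This value does not cover differences between libraries. Of genes at 10 CPM or more in one library, 7.20% to 13.6% had no count in another library of the same genotype. Fold bounds divide the pooled wild type CPM by 3 counts over the cKO group, and ratios carry exact 95% intervals. Both cover counting error only, since without molecular identifiers amplified copies cannot be told from separate molecules. Alternatives were DESeq2 1.42.0, RLE factors, 2 other filters, limma-voom (limma 3.58.1), a replicate block, the style of the titles as a term, other count limits, and each library left out. Genes were named by level (the 20 with the highest lower wild type CPM), as members of a list, by role (up to 2 more each), by closeness to a limit or as adjacent pairs. The genes with the widest gaps between wild type libraries, the Suz12 neighbours, the genes sharing windows, and in each role those beyond the 2 highest were chosen after their values were seen. Figures were drawn with matplotlib 3.10.9. One gene of the group is counted but not reported here by name.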

Additional observations from a re-analysis of the deposited data

How the results depend on the processing

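The number of genes kept within 1.5 times of 121 under the 7 other limits tried: 134, 104 and 82 with a minimum of 5, 20 and 50 counts in each wild type library, 87 and 153 with at most 0 and 10 counts over cKO, 112 with counts scaled to the shallowest library, 109 of them among the 121, and 122 with rows without a symbol kept in. In each of these settings 3 or 4 of the other 9 pairs of libraries gave more genes. Leaving out 1 library raised the number to between 203 and 591: 591 when wild type replicate 1 was left out, 437 when replicate 2 was, and 203, 288 and 211 without cKO replicates 1, 2 and 3, since fewer libraries then have to meet the limits. Over all genes edgeR called 0 at an adjusted p of 0.05, and so did RLE factors, no filter, a minimum count of 50, the style of the titles as a term, limma-voom and each library left out (0 to 0), while DESeq2 called 191. With the replicate number from the titles as a block edgeR called 1 gene, Il10, which is higher in cKO. The deviations of same-numbered libraries from their group means had a correlation of -0.0227 for number 1 and -0.00111 for number 2. With 2 wild type libraries their deviations are equal and opposite. These values therefore cannot settle whether same-numbered libraries share more than a number. With 2 and 3 libraries, absence from a library cannot be told from a level under its floor or from a gene that the library missed. Of genes at 10 CPM or more in one library, a median of 9.09% had no count in another library of the same genotype.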
